A study of Mus musculus with 12 samples.

Results

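The 10 genes described here, Cdkn1a, Ccng1, Mdm2, Phlda3, Eda2r, Sesn2, Trp53inp1, Zmat3, Bax and Bbc3, are targets of the transcription factor p53, and their RNA was followed in mouse lung after a tobacco carcinogen, a bacterial endotoxin, or both. They were chosen by name as well-known p53 targets, with earlier results of these data known. Every probe whose RefSeq transcript maps to one of these symbols was taken. These were 13 of the 41137 probes used, with a pair of probes each for Ccng1, Mdm2 and Trp53inp1. Of the 10 genes, 9 were among the 21855 items tested. Eda2r was not well above background on any of the 12 arrays.

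p53 is stabilised when DNA is damaged and then switches on genes that stop the cell cycle, repair damage or start apoptosis. Cdkn1a, an inhibitor of cyclin-dependent kinases, and Ccng1, cyclin G1, belong to the arrest arm, and Bax and Bbc3, which act at the mitochondrial membrane, to the apoptotic arm. Mdm2 is both a target of p53 and the ubiquitin ligase that marks it for degradation, so it closes a feedback loop. NNK is a nitrosamine of tobacco smoke that is activated by metabolism in the lung to species that alkylate DNA.

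Lung RNA of female FVB/N mice (strain given as FVB/NJ), aged 7 weeks at the start, was hybridised to 12 Agilent arrays in 1 colour, with 3 arrays in each of 4 groups. PBS mice received the vehicle weekly for 16 weeks, and LPS mice 5 ug of endotoxin into the nose weekly for 16 weeks. NNK mice received 3 mg of NNK into the abdomen over the first 4 weeks, at an interval the labels call biweekly in one place and semi-weekly in another. LPS/NNK mice received both agents. Lungs were taken a week after the last dose, and the labels do not say whether NNK mice also had a vehicle or were killed at the same age as the others.

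The PBS arrays stood apart from the 9 treated arrays, which bears on every comparison with PBS. Over all items the correlation r of PBS with treated arrays was 0.878 to 0.933. It was 0.978 to 0.984 among PBS arrays and 0.942 to 0.99 among treated ones. The 75th percentile of spot intensity was 699 to 984 on PBS arrays and 183 to 510 on treated arrays, the share of spots above background 70.2% to 73.1% against 55.6% to 67.5%, and the spike-in RNA went the other way, with a median log2 signal of 9.05 to 10.09 on PBS arrays and 10.47 to 11.39 on treated ones. PBS arrays lay at slide position 1, LPS and NNK arrays at position 2 and LPS/NNK arrays at position 4. Position and group therefore cannot be told apart except for NNK against LPS, which share a position. The slide itself is not shared there: LPS 1, LPS 5 and LPS 6 each lay alone on slides 2, 3 and 4. No comparison with LPS can thus be freed of slide differences, NNK against LPS included. PBS 2 lay alone on slide 1 and was the only array scanned on day 1. PBS 1 and PBS 2 go against the label of female mice: Xist, the RNA of the inactive X chromosome, was not well above background (log2 levels -8.43 and -8.41) and the Y-linked Ddx3y was (0.83 and 1.0), the reverse of PBS 3 and all 9 treated arrays. Comparisons with PBS are therefore given with and without these arrays, for single genes and for lists. Without them PBS is PBS 3 alone, which is assumed to vary like the other groups. Lung markers were present: all 8 alveolar type 2 markers tested and all 6 endothelial markers were well above background on every array.

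Levels below are log2 of the processed signal minus the array's 75th percentile, so a level has meaning only within its own probe. Changes are differences of group means on this scale with the standard error (SE) of limma, n = 3 arrays per group, and a gene is said to rise or fall only at a Benjamini-Hochberg adjusted p under 0.05 over all 21855 items. In whole lung, more cells of a type and more RNA per cell cannot be told apart. The share of all items whose arrays do not overlap between groups was not counted. Non-overlap of a gene's arrays, where stated below, is therefore not read as particular to that gene.

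RefSeq start-site windows (GRCm38.p6, 250 bases before to 50 after the start) are shown for the members that hold the p53 decamer, the 10-base element of which a p53 binding site has a pair, because this is the element p53 is known to bind, and the members that hold it can be read against how they moved. The windows were searched for the decamer consensus, which is its own reverse complement, and for 2 decamers with at most 13 bases between them. The consensus was found in 4 of 11 windows of 8 members (36.4%), in 9 of 44 windows of other p53 targets (20.5%) and in 8.36% of all 32851 windows. Capitals mark the decamer.
Cdkn1a, chr17:29090729-29091028, plus strand: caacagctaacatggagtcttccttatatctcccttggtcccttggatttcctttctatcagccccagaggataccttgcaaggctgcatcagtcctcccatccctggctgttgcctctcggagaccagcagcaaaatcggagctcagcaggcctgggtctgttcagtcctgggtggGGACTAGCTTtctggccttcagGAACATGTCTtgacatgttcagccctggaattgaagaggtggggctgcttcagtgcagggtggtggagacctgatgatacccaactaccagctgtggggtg
Bax, 50 bases around the decamer at chr7:45467090-45467099, minus strand: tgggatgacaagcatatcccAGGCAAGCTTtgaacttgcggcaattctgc
Mdm2, 50 bases around the decamer at chr10:117710935-117710944, minus strand: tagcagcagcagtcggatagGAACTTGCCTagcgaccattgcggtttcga
Ccng1, 50 bases around the decamer at chr11:40755462-40755471, minus strand: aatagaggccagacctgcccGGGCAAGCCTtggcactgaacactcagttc

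The Cdkn1a window, which belongs to the upstream of its 2 annotated starts, held decamers beginning 73 and 51 bases before the start. It was the only member window with a pair (9.09% of member windows, against 0.0731% of all windows and 0% for other p53 targets). The windows of Bbc3, Phlda3, Sesn2 and Eda2r and the downstream Cdkn1a window held no match in these bases. Zmat3 and Trp53inp1 had no window. Of the 4 genes with a decamer, Cdkn1a was higher and Mdm2 and Ccng1 lower in treated lungs, as described next, and Bax was not called against PBS.

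After NNK alone, 5 of the 9 tested members rose against PBS (Phlda3, Sesn2, Zmat3, Cdkn1a and Bbc3) and 3 fell (Ccng1, Trp53inp1 and Mdm2). That is 8 of 9 in a comparison where 51.5% of all items were called, 27.8% higher and 23.7% lower. The median change of the 9 members was 0.83, beside 0.04 over all items, and this depended on the scaling: it was 0.22 beside -0.09 after cyclic loess, 0.38 beside -0.05 after quantile normalization and 0.26 beside 0.56 after normexp background correction, where the members lay below all items. Without PBS 1 and PBS 2, 3 members were called, Phlda3, Sesn2 and Zmat3, all higher, while 19.7% of all items were. After LPS alone 5 rose and 2 fell, in a comparison where 56.0% of items were called (26.1% higher, 30.0% lower), and after both agents 5 rose and 2 fell, where 55.1% were called (27.9% higher, 27.1% lower). These 3 comparisons share the PBS arrays. Without PBS 1 and PBS 2 the counts were 2 higher and 2 lower for LPS (26.0% of all items called) and 3 higher and 1 lower for LPS/NNK (30.3%).

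**Figure D1:**
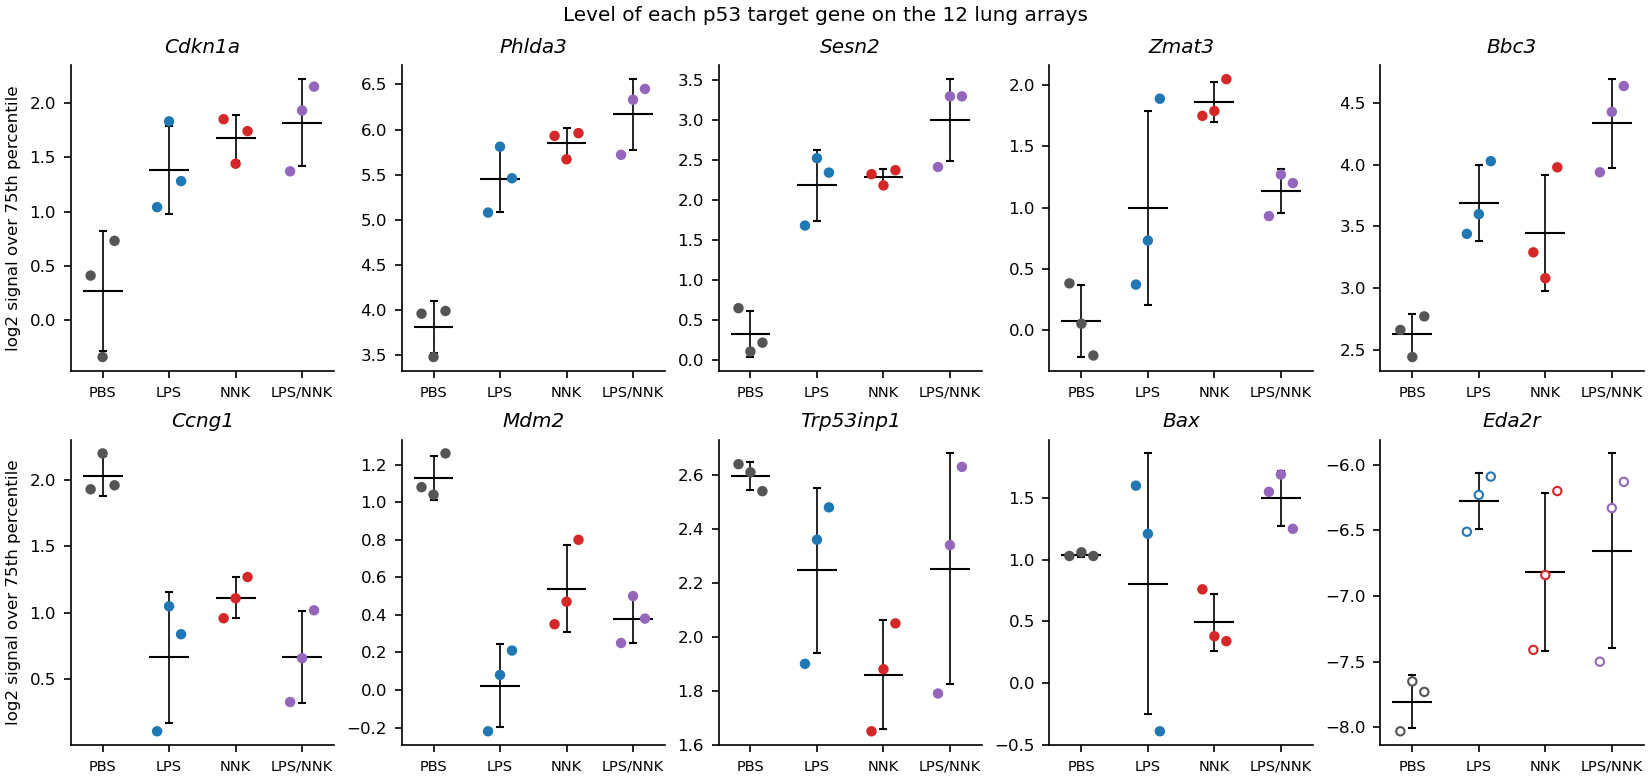
Log2 level of each p53 target gene on the 12 arrays, by group (points: arrays; line and bar: mean and SD, n = 3; open points: not well above background; each panel has its own axis). Cdkn1a, Phlda3, Sesn2 and Bbc3 lie higher on all 9 treated arrays than on any PBS array, and Ccng1 and Mdm2 lower. How many of all items separate this way was not counted.

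Cdkn1a (RefSeq NM_007669), which encodes p21, the main effector of arrest in G1, had levels of 0.41, -0.34 and 0.73 on the PBS arrays and 1.85, 1.44 and 1.74 on the NNK arrays. The LPS arrays were at 1.04, 1.83 and 1.28 and the LPS/NNK arrays at 1.37, 1.93 and 2.15. All 9 treated arrays lay above all PBS arrays, and the 3 treated groups overlapped each other. Cdkn1a rose by 1.41 after NNK (SE 0.32, adjusted p = 0.00309), by 1.12 after LPS (SE 0.32, adjusted p = 0.00962) and by 1.55 after both (SE 0.32, adjusted p = 0.00125), folds of 2.66, 2.17 and 2.93. PBS 2 held the lowest level: without it LPS against PBS was 0.81 and not called, and without PBS 1 and PBS 2 the changes were 0.95 (adjusted p = 0.126), 0.66 (adjusted p = 0.255) and 1.09 (adjusted p = 0.0703). After normexp background correction the change after NNK was 0.87 and that after LPS 0.97, neither called. With the replicate number as a block the change after LPS was 0.86, not called.

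Ccng1 (NM_009831), which encodes cyclin G1, a cyclin that draws a phosphatase to Mdm2, went the other way. Its brighter probe was at 1.93, 2.20 and 1.96 in PBS, 0.11, 1.05 and 0.84 in LPS, 0.96, 1.11 and 1.27 in NNK and 0.33, 0.66 and 1.02 in LPS/NNK. Every treated array was below every PBS array. It fell by 0.91 after NNK (SE 0.28, adjusted p = 0.015), by 1.36 after LPS (SE 0.28, adjusted p = 0.00125) and by 1.36 after both (SE 0.28, adjusted p = 0.00117). The second probe of the same transcript did not follow: its PBS arrays at -0.19, -0.18 and -0.12 lay inside the range of the NNK arrays (-0.62 to 0.39), and its difference after NNK was 0.07. After LPS and after both this probe differed by only -0.33 and -0.35. Its LPS arrays, from -1.38 to 0.45, spanned the PBS arrays. With the mean of both probes the change after NNK was -0.42 and not called. That call was also lost without NNK 2 (-0.84), without PBS 2 (-0.83), without PBS 1 and PBS 2 together (-0.84, adjusted p = 0.173) and in a fit with a term for the slide (-0.68), whereas the calls after LPS and after both agents were kept in all 27 and 28 settings run.

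Mdm2 (NM_010786), the ubiquitin ligase of p53, was lower in every treated group with both probes. The tested probe was at 1.08, 1.04 and 1.26 in PBS, -0.22, 0.08 and 0.21 in LPS, 0.35, 0.47 and 0.80 in NNK and 0.25, 0.50 and 0.38 in LPS/NNK. Again no treated array reached the PBS range. Mdm2 fell by 0.58 after NNK (SE 0.22, adjusted p = 0.0413), by 1.10 after LPS (SE 0.22, adjusted p = 0.00121) and by 0.75 after both (SE 0.22, adjusted p = 0.0116). The dimmer probe differed from PBS by -1.83, -2.03 and -1.80, and on it LPS 6 was not well above background. The NNK call was kept in 16 of 28 settings. It was lost without PBS 1 (-0.61), PBS 2 (-0.63), PBS 3 (-0.52), NNK 2 (-0.49), NNK 3 (-0.55), LPS/NNK 3 or LPS/NNK 6 (-0.58 each), and without PBS 1 and PBS 2 together (-0.72, adjusted p = 0.16). Without those 2 arrays LPS against PBS was -1.23 (adjusted p = 0.0269) and LPS/NNK against PBS -0.88 (adjusted p = 0.0769).

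**Figure D2:**
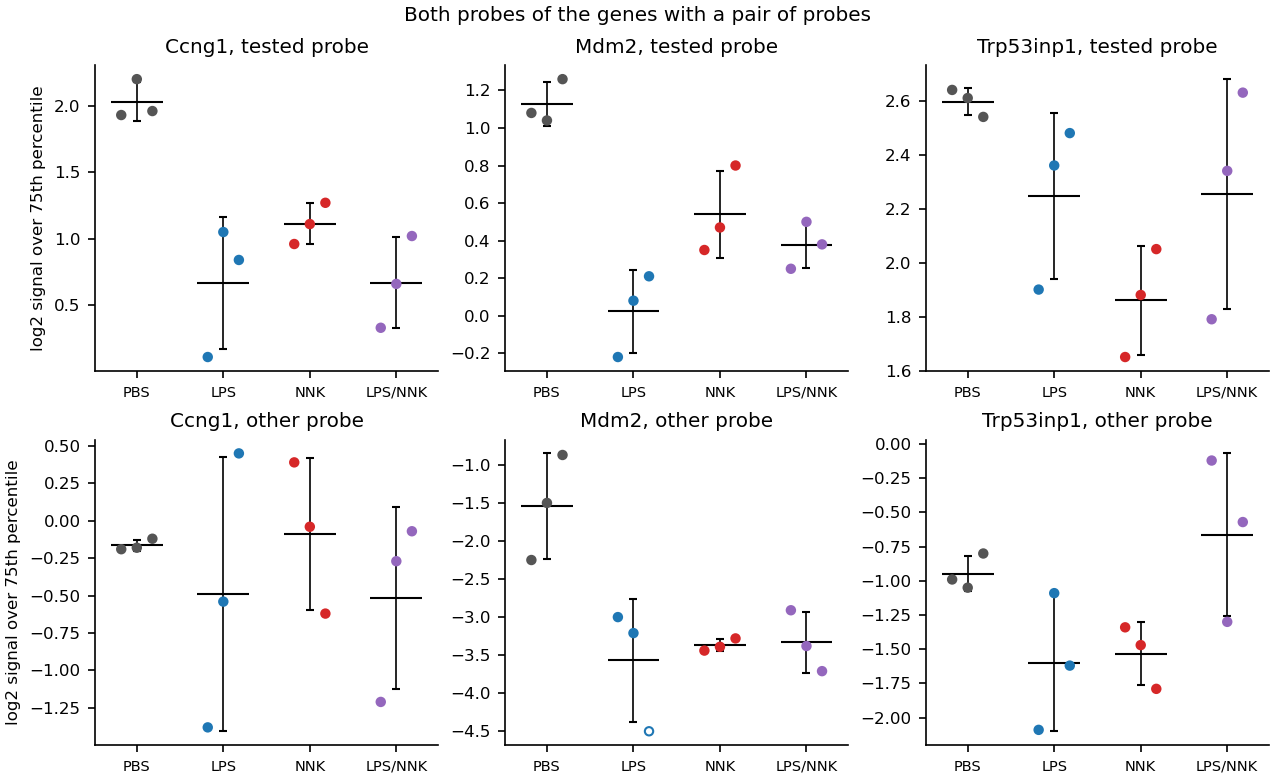
Log2 level by array for both probes of Ccng1, Mdm2 and Trp53inp1 (top: the tested, brighter probe; bottom: the other probe; points: arrays; line and bar: mean and SD, n = 3; open point: not well above background). Both Mdm2 probes separate PBS from all treated arrays, while the second Ccng1 probe does not.

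Phlda3 (NM_013750), a small pleckstrin-homology protein that competes with Akt for membrane lipids, and Sesn2 (NM_144907), sestrin 2, which restrains mTORC1 under stress, had the largest rises of the 9 tested members after NNK. Phlda3 was at 3.96, 3.48 and 3.99 in PBS, 5.08, 5.81 and 5.46 in LPS, 5.93, 5.67 and 5.96 in NNK and 5.72, 6.33 and 6.45 in LPS/NNK. Sesn2 was at 0.65, 0.11 and 0.22 in PBS, 1.68, 2.52 and 2.34 in LPS, 2.32, 2.18 and 2.37 in NNK and 2.41, 3.29 and 3.29 in LPS/NNK. For both genes the gap between PBS and treated arrays was wider than the spread within any group. Phlda3 rose by 2.04 after NNK (SE 0.27, adjusted p = 0.000202), by 1.64 after LPS (SE 0.27, adjusted p = 0.000365) and by 2.35 after both (SE 0.27, adjusted p = 2.43e-05). Sesn2 rose by 1.96 (SE 0.30, adjusted p = 0.000364), 1.85 (SE 0.30, adjusted p = 0.0003) and 2.67 (SE 0.30, adjusted p = 2e-05), the last a fold of 6.35. These 6 calls were kept in every setting run. Without PBS 1 and PBS 2, Phlda3 differed by 1.86 after NNK (adjusted p = 0.0157), 1.46 after LPS (adjusted p = 0.0254) and 2.17 after both (adjusted p = 0.00367), and Sesn2 by 2.06 (adjusted p = 0.0153), 1.96 (adjusted p = 0.0119) and 2.77 (adjusted p = 0.00191).

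Trp53inp1 (NM_021897), a stress protein that acts in autophagy and in p53 phosphorylation, was at 2.64, 2.61 and 2.54 in PBS and 1.65, 1.88 and 2.05 in NNK. It fell by 0.74 after NNK (SE 0.26, adjusted p = 0.0302). The LPS arrays (1.90, 2.36 and 2.48) and LPS/NNK arrays (1.79, 2.34 and 2.63) spread over most of that range, with differences of -0.35 (adjusted p = 0.269) and -0.34 (adjusted p = 0.281) that did not pass. Its second probe differed from PBS by -0.59 after NNK and -0.66 after LPS, but by 0.28 after both. The NNK call was kept in 20 of 28 settings. It was lost with the slide as a fixed effect (-0.58, adjusted p = 0.232). It was lost without NNK 2 (-0.63), NNK 3 (-0.74), PBS 1 (-0.72), PBS 2 (-0.73) or PBS 3 (-0.76), and without PBS 1 and PBS 2 together (-0.68, adjusted p = 0.242).

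Zmat3 (NM_009517), a zinc-finger protein that binds RNA and acts as a tumour suppressor downstream of p53 in mice, was at 0.38, 0.05 and -0.21 in PBS and 1.75, 1.79 and 2.05 in NNK. The LPS/NNK arrays, at 0.93, 1.27 and 1.20, lay between these groups and overlapped neither. The LPS arrays scattered most, at 0.37, 0.73 and 1.89, from the PBS range to the NNK range. Zmat3 rose by 1.79 after NNK (SE 0.34, adjusted p = 0.00105), a 3.46-fold change kept in all 28 settings, and stood at 2.07 without PBS 1 and PBS 2 (adjusted p = 0.0206). It rose by 0.93 after LPS (SE 0.34, adjusted p = 0.0309) and by 1.07 after both (SE 0.34, adjusted p = 0.016). The LPS call was lost without LPS 6 (0.48), PBS 2 (0.92) or PBS 3 (0.79), and the LPS/NNK call without LPS/NNK 3 (1.0) or PBS 3 (0.93). Both were also lost after normexp (0.78, adjusted p = 0.177, and 0.89, adjusted p = 0.0955). With the replicate number as a block they were lost too (0.64, adjusted p = 0.173, and 0.81, adjusted p = 0.0722). Without PBS 1 and PBS 2 these changes were 1.21 (adjusted p = 0.0924) and 1.35 (adjusted p = 0.0613).

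Bbc3 (NM_133234) encodes PUMA, a BH3-only protein that frees Bax and Bak to open the mitochondrial membrane. It was at 2.66, 2.44 and 2.77 in PBS, 3.44, 3.60 and 4.03 in LPS, 3.29, 3.08 and 3.98 in NNK and 3.94, 4.43 and 4.64 in LPS/NNK. All treated arrays were above all PBS arrays, and LPS/NNK held the 2 highest levels, 4.43 and 4.64. Bbc3 rose by 0.83 after NNK (SE 0.29, adjusted p = 0.0288), by 1.07 after LPS (SE 0.29, adjusted p = 0.00706) and by 1.71 after both (SE 0.29, adjusted p = 0.00031), and the last call was kept in all 28 settings. The NNK change depended on the scaling: it was 0.22 after cyclic loess, 0.38 after quantile normalization and 0.26 after normexp, none called, and it was not called without NNK 5 (0.56), PBS 1 (0.84) or PBS 2 (0.74). The LPS change was 0.48 after loess and 0.59 after quantile normalization, neither called. Without PBS 1 and PBS 2 the changes were 0.68 (adjusted p = 0.28), 0.92 (adjusted p = 0.139) and 1.57 (adjusted p = 0.0223).

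Bax (NM_007527), the pore-forming effector of that step, was not called against PBS in any treated group, although some alternatives called it. Its PBS arrays lay close together, at 1.03, 1.06 and 1.03, as did the LPS/NNK arrays, at 1.55, 1.69 and 1.25, which were all above PBS. The NNK arrays, at 0.76, 0.38 and 0.34, were all below. In LPS, 2 arrays were at 1.60 and 1.21 and LPS 6 at -0.39. The differences from PBS were -0.55 after NNK (95% interval -1.40 to 0.31, adjusted p = 0.259), -0.23 after LPS (-1.08 to 0.62, adjusted p = 0.64) and 0.46 after both (-0.39 to 1.31, adjusted p = 0.34). The NNK difference was called in 2 of 28 settings, with array weights (-0.60, adjusted p = 0.0308) and in a fit of both groups alone (-0.55, adjusted p = 0.0314), and the LPS/NNK difference in 1 of 28, with the replicate number as a block (0.90, adjusted p = 0.0416). Without LPS 6 the LPS difference was 0.37, not called, and without PBS 1 and PBS 2 the 3 differences were -0.53 (adjusted p = 0.541), -0.22 (adjusted p = 0.807) and 0.47 (adjusted p = 0.584). Eda2r (NM_175540), a receptor of the tumour necrosis factor family, was at -8.03 to -7.65 in PBS and -7.50 to -6.09 on the treated arrays, at no point well above background, so no fold is given.

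**Figure D3:**
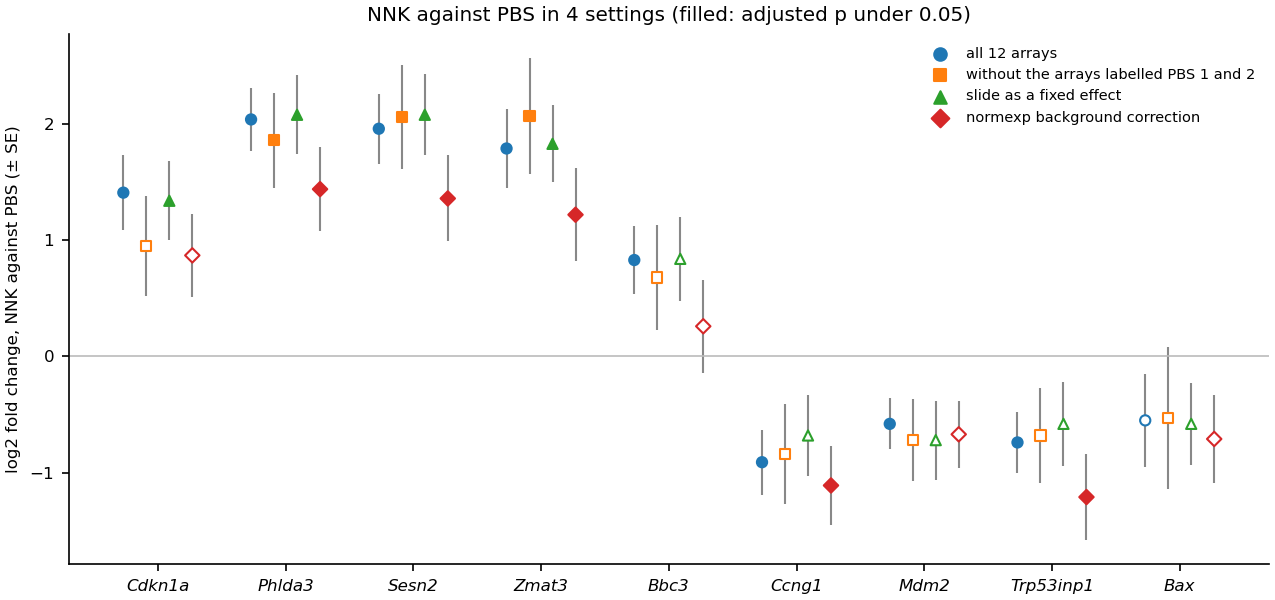
Log2 fold change of the 9 tested members, NNK against PBS, in 4 settings (bars: SE; filled: adjusted p under 0.05). Phlda3, Sesn2 and Zmat3 are filled in all 4 settings, with changes from 1.22 to 2.08, whereas Bbc3, Mdm2 and Bax are called in at most 1.

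Slides that held arrays of different groups allow the same differences to be read within a slide, without replicates. Slide 5 held NNK 2 and PBS 3. There Phlda3 differed by 1.94, Sesn2 by 2.09, Zmat3 by 1.96, Cdkn1a by 1.12 and Bbc3 by 0.52, and Mdm2 by -0.90, Ccng1 by -0.99, Trp53inp1 by -0.88 and Bax by -0.27. Each has the sign of the difference over all arrays. On slide 8, LPS/NNK 6 and PBS 1 differed by 2.49 for Phlda3, 2.64 for Sesn2, 1.74 for Cdkn1a, 1.98 for Bbc3, 0.83 for Zmat3, 0.22 for Bax, -0.01 for Trp53inp1, -0.70 for Mdm2 and -0.91 for Ccng1. With the slide as a fixed effect 4 members were called for NNK against PBS, in a fit where 6643 of all 21855 items were. These were Phlda3 (2.08, adjusted p = 0.00869), Sesn2 (2.08, adjusted p = 0.00897), Zmat3 (1.83, adjusted p = 0.0101) and Cdkn1a (1.34, adjusted p = 0.0225). That fit uses only slides with arrays of more than 1 group, so its PBS arrays are PBS 1 and PBS 3. The sex-linked transcripts of PBS 1, also the PBS array of slide 8, go against the label.

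Whether the carcinogen adds to endotoxin was asked with LPS/NNK against LPS, in which no PBS array enters the difference. By limma 0 of 9 members were called, in a comparison where 4.11% of all items were (2.85% higher, 1.26% lower), and 3 members had an unadjusted p under 0.05. These were Sesn2 (0.81, 95% interval 0.17 to 1.46, adjusted p = 0.119), Phlda3 (0.72, 0.12 to 1.31, adjusted p = 0.13) and Bbc3 (0.65, 0.03 to 1.27, adjusted p = 0.182). All 9 differences were positive, from 0.01 for Ccng1 and Trp53inp1 to 0.81, with a median of 0.43 beside 0.11 over all items. After normexp the medians were 0.32 and 0.30. Ccng1 and Trp53inp1 turned negative under several scalings. Without LPS/NNK 2, Sesn2 (1.11) and Phlda3 (0.94) were called, in a fit where 4828 of all 21855 items were, beside 898 with all arrays.

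NNK alone against LPS alone likewise gave 0 of 9 by limma, where 6.22% of all items were called (3.49% higher, 2.73% lower). Zmat3 (0.86, 95% interval 0.14 to 1.59, adjusted p = 0.163) and Mdm2 (0.52, 0.04 to 0.99, adjusted p = 0.209) had an unadjusted p under 0.05. For Mdm2 the NNK arrays were all above the LPS arrays. Without LPS 6, Zmat3 (1.31) and Bax (-0.91) were called, in a fit where 2131 of all 21855 items were, beside 1360 with all arrays. For the other members that rose after NNK the 95% intervals of this difference included 0, for example -0.19 to 0.99 for Phlda3, -0.54 to 0.76 for Sesn2 and -0.39 to 0.98 for Cdkn1a.

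LPS/NNK against NNK asks what endotoxin added to the carcinogen. Of the 9 members 1 was called, Bbc3, higher by 0.89 (SE 0.29, adjusted p = 0.0499), where 17.3% of all items were called (7.92% higher, 9.35% lower). Its arrays overlapped, NNK 5 at 3.98 lying above LPS/NNK 2 at 3.94. The call was kept in 13 of 28 settings and lost without PBS 1, PBS 2, PBS 3 or LPS 5 (0.89 each), and without LPS/NNK 3 (0.84), LPS/NNK 6 (0.73), NNK 2 (0.80) or NNK 3 (0.70), as well as in the fit with a term for the slide (0.81, adjusted p = 0.105), although these groups share slides 6 and 7, where Bbc3 differed by 0.86 and 0.45. Bax was higher on all 3 LPS/NNK arrays than on any NNK array, with a difference of 1.0 (95% interval 0.15 to 1.86) that did not pass (adjusted p = 0.0955). It was called in 5 of 28 settings, among them without LPS 6 (1.0) and in the fit with a term for the slide (1.11, adjusted p = 0.0395), and the slides shared by these groups gave 1.17 and 1.35. Zmat3 was lower on all LPS/NNK arrays than on any NNK array (-0.72, adjusted p = 0.152; -0.85 and -0.78 within the shared slides), and Sesn2 was higher on all of them (0.71, adjusted p = 0.121). Without LPS/NNK 2, Sesn2 was called at 1.0, in a fit where 5823 of all items were, beside 3773 with all arrays. Without LPS 6, Zmat3 was called at -0.72.

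**Figure D4:**
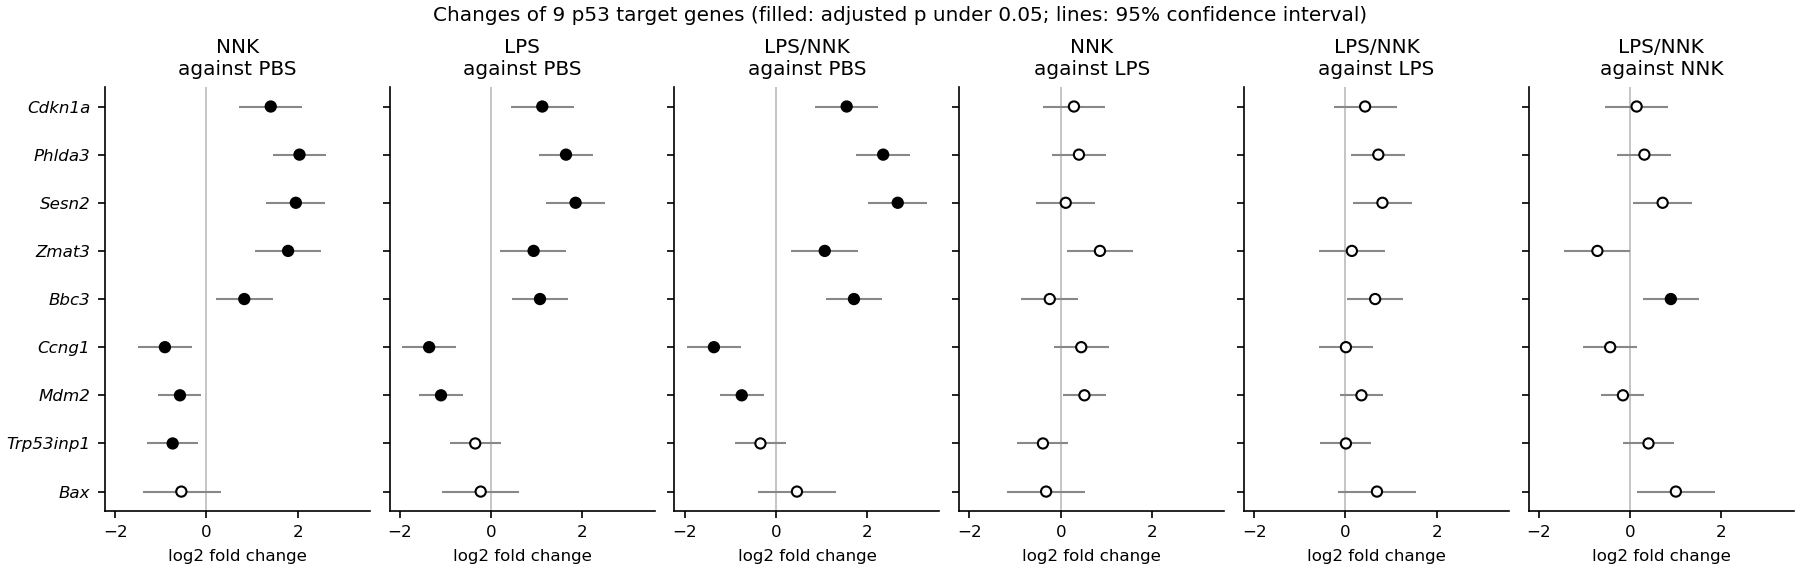
Log2 fold change of the 9 tested members in the 6 comparisons of groups (points: limma estimates; lines: 95% confidence intervals; filled: adjusted p under 0.05). Filled points fill the 3 comparisons with PBS, 8, 7 and 7 of 9, and among the treated groups Bbc3 in LPS/NNK against NNK is the single one.

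The interaction of the agents, the change of LPS/NNK against LPS minus that of NNK against PBS, was called for 4 of 9 members, 1 higher and 3 lower, where 38.7% of all items were (20.1% higher, 18.6% lower). It was -1.65 for Zmat3 (SE 0.48, adjusted p = 0.0166), -1.33 for Phlda3 (SE 0.39, adjusted p = 0.0177), -1.15 for Sesn2 (SE 0.43, adjusted p = 0.0474) and 0.94 for Mdm2 (SE 0.31, adjusted p = 0.0317). For each, the difference between NNK and PBS was larger in size than that between LPS/NNK and LPS. The direction of the member calls moved with the scaling. They were 3 higher and 1 lower after cyclic loess, 3 and 3 after quantile normalization, and 0 and 4 with the array median. The median of all items in this term was 0.05, 0.02 and -0.30 in these settings. The PBS arrays enter this term, and without PBS 1 and PBS 2 0 of the 9 were called by limma and 4 had an unadjusted p under 0.05, with Zmat3 at -1.93 (adjusted p = 0.0589), Phlda3 at -1.14 (adjusted p = 0.134), Sesn2 at -1.25 (adjusted p = 0.136) and Mdm2 at 1.07 (adjusted p = 0.111), while 12.0% of all items were.

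Trp53 itself, which encodes p53, was at 0.84 to 1.34 in PBS, 2.64 to 3.40 in LPS, 2.46 to 2.77 in NNK and 2.24 to 2.95 in LPS/NNK. It rose by 1.63 after NNK (SE 0.28, adjusted p = 0.000601), by 2.01 after LPS (SE 0.28, adjusted p = 0.000101) and by 1.51 after both (SE 0.28, adjusted p = 0.000528). With PBS 3 as the only PBS array these rises were 1.79 (adjusted p = 0.0174), 2.17 (adjusted p = 0.00558) and 1.68 (adjusted p = 0.0116). The 3 treated groups overlapped, and none of their differences was called. Mdm4, the partner of Mdm2 that blocks the transactivation domain of p53, was at -2.01 to -1.88 in PBS, -3.07 to -2.97 in LPS, -2.31 to -2.24 in NNK and -2.21 to -2.10 in LPS/NNK. The 4 groups did not overlap. It fell by 1.10 after LPS (SE 0.19, adjusted p = 0.000499), and it was higher in LPS/NNK than in LPS (0.86, adjusted p = 0.0312) and in NNK than in LPS (0.75, adjusted p = 0.037). Its difference from PBS was -0.36 after NNK (adjusted p = 0.137) and -0.25 after both (adjusted p = 0.296), neither called. With PBS 3 alone the changes from PBS were -1.14 after LPS (adjusted p = 0.0237), -0.40 after NNK (adjusted p = 0.373) and -0.29 after both (adjusted p = 0.515), and the differences from LPS kept their size but had adjusted p = 0.0724 in LPS/NNK and 0.0852 in NNK.

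Of 13 tested genes that encode p53, its relatives and its regulators, 3 rose and 3 fell after NNK (46.2%, beside 51.5% of all items). The rises were Trp53, its relative Trp73 (1.37, adjusted p = 0.000583) and H2ax, the histone variant phosphorylated at DNA breaks (1.51, adjusted p = 0.00276). The falls were the kinases Atm (-1.05, adjusted p = 0.0077), Chek1 and Chek2. Neither Chek1 nor Chek2 was well above background on any NNK array, so that their folds are bounds, against the lowest signal above background on each array or the probe's own where that was higher: Chek1 was at least 1.21-fold lower (adjusted p = 0.00298) and Chek2 at least 1.72-fold lower (adjusted p = 0.0428). After LPS 4 rose and 3 fell (53.8%, beside 56.0%), and after both agents 5 rose and 2 fell (53.8%, beside 55.1%). Of the 3 falls after LPS, Atm and Chek1 were not well above background on any LPS array. By the same kind of bound Atm was at least 2.01-fold lower (adjusted p = 0.000358). For Chek1 the bound was 0.816 (adjusted p = 0.017), which is below 1, so no size of fall after LPS can be given for it. When PBS 1 and PBS 2 were left out, the 3 rises after NNK stayed called, Trp73 at 1.41 (adjusted p = 0.0214) and H2ax at 1.92 (adjusted p = 0.0214), and 0 were called lower by limma (2 had an unadjusted p under 0.05), with Atm at -1.02 (adjusted p = 0.112). Without these arrays fewer of the 13, as of all items, were called after LPS and after both, with median changes of -0.11 and -0.29. Mdm4 was the single gene called in LPS/NNK against LPS (7.69%, beside 4.11% of all items) and in NNK against LPS (7.69%, beside 6.22%). In LPS/NNK against NNK 0 of 13 were called by limma, beside 17.3% of all items, and 4 had an unadjusted p under 0.05. In the interaction 3 were higher and 2 lower (38.5%, beside 38.7%), Trp53 among the latter (-2.12, adjusted p = 0.00247). Without PBS 1 and PBS 2 Trp53 was at -2.29, and fewer of the 13, as of all items, were called.

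Of 39 other p53 targets, all of them tested, 12 rose and 9 fell after NNK (53.8%, beside 51.5% of all items), with a median change of 0.14. Those with the smallest p were Dcxr, a carbonyl reductase (2.21, adjusted p = 9.69e-05), Psrc1, a spindle protein (2.44, adjusted p = 0.000233), Sulf2, a heparan sulfatase (1.5, adjusted p = 0.000523), and Pidd1, a death-domain protein (1.31, adjusted p = 0.000829). After LPS 13 rose and 9 fell (median -0.13), led by Dcxr (2.41), Sulf2 (1.85), Rrm2b, a ribonucleotide reductase subunit (-2.13), and Polk, a translesion polymerase (-1.48). After both 13 rose and 8 fell (median 0.28), led by Dcxr (2.26), Psrc1 (2.91), Fdxr, a mitochondrial reductase (2.31), and Sulf2 (1.84). The share called in these comparisons was close to that of all items. Fewer of the 39 genes, and fewer of all items, were called without PBS 1 and PBS 2. Without these arrays the median changes of the 39 were 0.19 after NNK, -0.03 after LPS and 0.28 after both. The named genes stayed called without them: after NNK Dcxr was at 1.91, Psrc1 at 2.43, Sulf2 at 1.21 and Pidd1 at 1.5, after LPS Dcxr at 2.11, Sulf2 at 1.56, Rrm2b at -2.05 and Polk at -1.44, and after both Dcxr at 1.96, Psrc1 at 2.90, Fdxr at 2.29 and Sulf2 at 1.55, with adjusted p from 0.00203 for Psrc1 after both to 0.0426 for Sulf2 after NNK.

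Between the treated groups fewer of these 39 genes were called than against PBS. Psrc1 (1.46, adjusted p = 0.0341) and Tnfaip8, a regulator of apoptosis (1.12, adjusted p = 0.0442), were higher in LPS/NNK than in LPS (5.13%, beside 4.11% of all items). Perp, a membrane protein of desmosomes, was higher in NNK than in LPS (0.96, adjusted p = 0.0295), the single call there (2.56%, beside 6.22% of all items). In LPS/NNK against NNK 5 were higher and 3 lower (20.5%, beside 17.3%), with Tnfaip8 (2.03), Perp (-1.37), Fdxr (1.16) and Ephx1, an epoxide hydrolase (-1.10), at the smallest p. In the interaction 11 were higher and 7 lower (46.2%, beside 38.7%), with a median of 0.18. Without PBS 1 and PBS 2 the median was 0.21, and fewer of the 39, as of all items, were called.

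**Figure D5:**
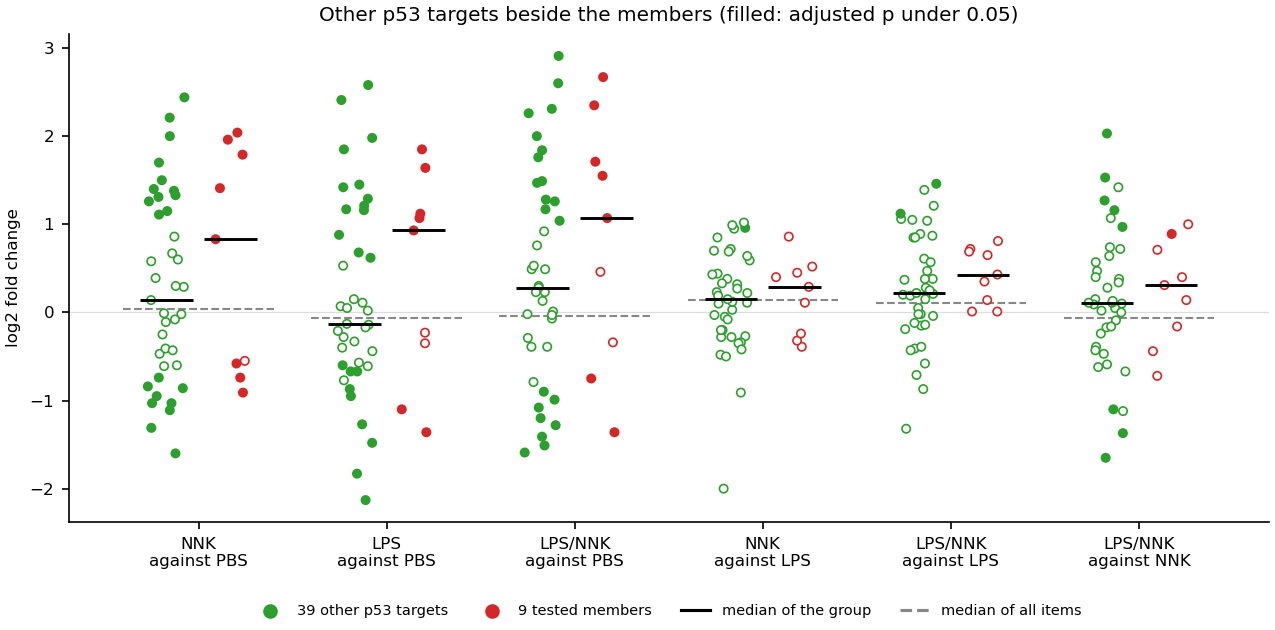
Log2 fold change of 39 other p53 targets (green) and the 9 tested members (red) in the 6 comparisons of groups (points: genes; solid line: median; dashed line: median of all items; filled: adjusted p under 0.05). The median of the members is 0.83 and that of the other targets 0.14 for NNK against PBS. After normexp they are 0.26 and 0.25, after cyclic loess 0.22 and -0.01, and no test was made of this difference.

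Cell type markers moved with the treatments too, in comparisons where 51.5%, 56.0% and 55.1% of all items were called after NNK, LPS and both. The mean level of 6 monocyte and macrophage markers was 0.35 to 1.19 in PBS, 1.36 to 1.48 in NNK, 3.32 to 3.65 in LPS and 3.68 to 4.05 in LPS/NNK. Of the 6, 4 rose and 1 fell after NNK, 5 rose after LPS and 6 after both (83.3%, 83.3% and 100% called). That of 8 alveolar type 2 markers was 4.31 to 4.43 in PBS, 5.14 to 5.60 in NNK, 4.98 to 5.13 in LPS and 4.97 to 5.16 in LPS/NNK. Of the 8, 6 rose after NNK, 5 rose and 1 fell after LPS, and 4 rose and 1 fell after both (75%, 75% and 62.5%). That of 9 proliferation genes was -2.01 to -0.49 in PBS, -1.84 to -1.16 in NNK, -0.89 to -0.43 in LPS and -0.23 to 0.13 in LPS/NNK. Of the 9, 2 rose and 1 fell after NNK, 4 rose after LPS and 6 after both (33.3%, 44.4% and 66.7%).

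That of 7 T cell markers was -1.16 to -0.89 in PBS, -1.08 to -1.02 in NNK, -0.43 to 0.79 in LPS and 0.13 to 0.69 in LPS/NNK. Of the 7, 1 rose and 1 fell after NNK, 5 rose after LPS and 6 after both (28.6%, 71.4% and 85.7%). The mean level of 5 alveolar type 1 markers was 4.39 to 4.47 in PBS, 4.17 to 4.51 in NNK, 3.75 to 4.18 in LPS and 3.76 to 3.84 in LPS/NNK. Of the 5, 2 rose and 1 fell after NNK, 2 fell after LPS, and 1 rose and 3 fell after both (60%, 40% and 80%). Markers of B cells, neutrophils, airway epithelium, endothelium, fibroblasts and heart muscle were called for 20% to 50% of a list after NNK, 0% to 75% after LPS and 16.7% to 83.3% after both. Against PBS 3 alone the monocyte and macrophage markers gave 1 rise and 1 fall after NNK, 5 rises after LPS and 5 after both, the alveolar type 2 markers 3, 1 and 3 rises, the proliferation genes 2, 4 and 5, and the T cell markers 0, 1 and 2 by limma (1 of the 7, lower, had an unadjusted p under 0.05 after NNK), while 19.7%, 26.0% and 30.3% of all items were called. The alveolar type 1 markers then gave 1 rise and 1 fall after NNK, 1 fall after LPS, and 1 rise and 2 falls after both. All markers of the monocyte, alveolar, proliferation and T cell lists were above background in at least some arrays of every group, and their part in the changes of the p53 targets was not tested.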

How the data were processed

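The 12 lung RNA samples were measured in 1 colour. Per the labels, the spot intensity was extracted with Agilent Feature Extraction 10.7 (10.7.3.1 per the file headers) and processed with Partek, per the submitters' processing notes. The deposited table of log2 values differed by over 0.01 from the values computed here for 404 of 493644. The deposited intensity used here is the processed signal. From it, log2 minus the 75th percentile of each array was computed, outlier spots were left out and spots of a probe averaged, and the 24355 probes (59.2%) whose accession matched a RefSeq table got a gene symbol. Probes above background on all arrays of 1 or more groups were kept (28333 of 41137), and the brightest kept probe stood for its gene. With 3 arrays per group, their number sets the precision.

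All 12 arrays entered 1 fit in limma 3.58.1 (R 4.3.3) with a mean per group and no covariate, tested 2-sided with Benjamini-Hochberg adjustment over 21855 items. An exact test of 3 arrays against 3 cannot go below 0.1. The labels do not say that arrays come from separate mice, so p-values measure the spread between these samples. The fit was tested on simulated data of independent arrays in which few genes changed. These had no slide, position or PBS array differences, so that test does not cover such differences here. Named from the other lists were up to 4 called genes per comparison with the smallest p, plus Trp53 and Mdm4. The members and lists were chosen with earlier results of these data known. Alternatives changed background correction, scaling, filter, probe rule, spread, slide, replicate block and arrays. The files hold no mean signal, so normexp (offset 50) used the median signal, an alternative chosen after seeing the data. Promoter windows came from RefSeq, GRCm38.p6.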

Additional observations from a re-analysis of the deposited data

Results flagged for a closer look

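The interaction of LPS and NNK asks whether the change with NNK differs between mice with and without endotoxin. It passed for 4 of the 9 tested p53 targets (44.4%, beside 38.7% of all items). These were Mdm2 (0.94), Phlda3 (-1.33), Sesn2 (-1.15) and Zmat3 (-1.65) on the log2 scale. Zmat3 differed by 1.79 between NNK and PBS and by 0.14 between LPS/NNK and LPS, Phlda3 by 2.04 and 0.72, Sesn2 by 1.96 and 0.81, and Mdm2 by -0.58 and 0.35. The term was called in 24 of 26 settings for Zmat3, 22 for Phlda3, 15 for Mdm2 and 12 for Sesn2. Directions among the members moved with the scaling. After cyclic loess 3 were called higher and 1 lower, and with the array median 0 and 4. By limma 0 were called after normexp background correction (3 of the 9 members had an unadjusted p under 0.05) and 0 without PBS 1 and PBS 2, whose sex-linked transcripts go against the label (4 of 9).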

How the results depend on the processing

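Over 28 alternatives (27 or 26 where a setting gave no value) there were 741 recomputed values of called member changes, of which 630 stayed called and 111 did not, all with the same sign; of 978 values of uncalled changes, 43 became called and 40 changed sign. The number of members called for NNK against PBS, 8, was 5 after normexp, 4 with the slide as a fixed term, 3 without PBS 1 and PBS 2 and 4 to 8 with each array left out in turn. For LPS against PBS, 7, it was 4 after normexp, with the replicate block and without PBS 1 and PBS 2, and 5 to 7 with an array left out; for LPS/NNK against PBS, 7, it was 4 without PBS 1 and PBS 2 and 6 to 7. For LPS/NNK against LPS, 0, it was 2 with array weights and 0 to 2 (2 without LPS/NNK 2); for NNK against LPS, 0, it was 1 with array weights and 0 to 2 (2 without LPS 6). For LPS/NNK against NNK, 1, it was 0 after normexp, after quantile normalization, with no filter and without PBS 1 and PBS 2, 6 with array weights and 0 to 3. For the interaction, 4, it was 0 after normexp and without PBS 1 and PBS 2, 7 with array weights and 2 to 5. Counts of all items called moved in many of these settings too. For NNK against PBS, 11264 of 21855 became 6643 with the slide as a fixed term. For LPS against PBS, 12243 became 4346 after normexp. For LPS/NNK against LPS, 898 became 6163 with array weights and 4828 without LPS/NNK 2. For NNK against LPS, 1360 became 3542 with array weights. For the interaction, 8464 became 271 after normexp, and its directions moved with the scaling. The cause was not tested. Titles share replicate numbers, and deviations of same-numbered arrays from their group means correlated with r from -0.15 to 0.41. Arrays with different numbers were not compared in this way, so whether the numbers pair the samples cannot be told.

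Sign changes concerned uncalled differences. In LPS/NNK against LPS, Ccng1 was -0.01 after normexp and with the mean of probes, -0.05 after loess, -0.09 with the array median, -0.07 with the percentile over detected probes, -0.08 with array weights and -0.27 to -0.17 without LPS 1 or LPS/NNK 6 (-0.27 to 0.20 with any array left out); Trp53inp1 was -0.14 after normexp, -0.07 after quantile normalization and with the percentile over detected probes, -0.08 after loess, -0.09 with the array median, -0.01 with the slide as a random block and -0.18 to 0.24 with an array left out; Zmat3 was -0.18 to 0.58. In NNK against LPS, Cdkn1a was -0.10 after normexp and -0.05 with array weights, Phlda3 -0.10 after normexp, Sesn2 -0.30 after normexp, -0.09 with the array median, -0.11 with array weights and -0.14 to 0.28 with an array left out, Bbc3 0.02 with the replicate block, and Bax -0.91 to 0.08. In LPS against PBS, Trp53inp1 was 0.05 and Bax 0.17 with the array median, and Bax 0.09 with the replicate block and -0.62 to 0.37. In LPS/NNK against NNK, Cdkn1a was -0.03 to 0.36. In the interaction, Bbc3 was 0.20 after normexp, 0.09 after quantile normalization, 0.30 after loess, 0.03 with the percentile over detected probes, 0.21 with array weights, 0.17 with the replicate block and -0.36 to 0.09.

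The scaling moved the median of all items in comparisons with PBS: to 0.24, 0.34 and 0.26 (NNK, LPS, LPS/NNK) with the array median, -0.25, -0.34 and -0.40 with the percentile over detected probes and 0.56, 0.34 and 0.52 after normexp. Items called for NNK against PBS, 11264, were 17566 with no filter, 6643 with the slide as a fixed term and 4299 without PBS 1 and PBS 2; for LPS against PBS, 12243, they were 19478 with no filter, 4346 after normexp and 5692 without PBS 1 and PBS 2; for LPS/NNK against PBS, 12037, they were 18661, 6514 and 6616; for the interaction, 8464, they were 13191, 271 and 2631. For LPS/NNK against LPS, 898, they were 6163 with array weights, 1896 with the replicate block, 345 with no filter, 38 with only both groups and 0 after normexp (limma; 1549 had an unadjusted p under 0.05), and 4828 without LPS/NNK 2; for LPS/NNK against NNK, 3773, they were 10716 with array weights, 377 after normexp and 5823 without LPS/NNK 2; for NNK against LPS, 1360, they were 3542 with array weights, 805 for probes above background on all arrays and 228 after normexp. Treated arrays had fewer probes above background, which leaves bounds for genes such as Chek1; Eda2r was not above background on any array, PBS included.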
